A study of Mus musculus with 32 samples.

Results

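Reg3a, Reg3b, Reg3g, Saa1, Saa2, Nos2, Duox2, Duoxa2, Retnlb and Fut2 are 10 genes known for antimicrobial defence or for induction by microbes in the gut epithelium, and they were described here through the HNF4A sites around them. Peaks of 8 HNF4A ChIP-seq libraries that had 1 bp or more in common were joined into single sites, which gave 45552 sites, and a site was assigned to a gene when it overlapped the gene body or the 20 kb on either side (GENCODE M1, mm9). In all, 26 of the 45552 sites met this rule, in 38 pairs of a site and a gene, since 12 sites lay in the window of more than 1 member. The libraries came from jejunal intestinal epithelial cells (IECs) of male C57BL/6J mice aged 10 to 12 weeks, 4 germ free (GF+HFM) and 4 ex-germ-free that had carried a conventional microbiota over 2 weeks (CV+HFM). Mice of both groups had received a high-fat meal (HFM) of egg yolk by gavage 2 hours before collection, so every library used here carries the meal. The cells were not sorted, and the preparation can hold some non-epithelial cells. ChIP-seq enriches DNA bound by a protein with an antibody, and a peak is a stretch where the enriched reads pass a threshold over input DNA.

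HNF4A is a nuclear receptor that binds DNA as a dimer and is known for its role in enterocyte differentiation and lipid metabolism. Reg3 proteins are secreted C-type lectins, of which Reg3b and Reg3g act on bacteria at the mucosal surface. Saa1 and Saa2 are acute-phase serum amyloid A proteins, Nos2 makes nitric oxide, and Duox2, with its maturation factor Duoxa2, makes hydrogen peroxide at the apical membrane. Retnlb is a goblet cell protein that acts on bacteria, and Fut2 adds fucose to surface glycans. The lists hold peak positions only, so the values are whether a library called a site and how wide its peak was, and they say nothing of the genes' expression.

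The reference sequences at the sites called most often are given first, because the calls below refer to them. For each member with a site, the site called in most libraries was taken, and the bases shared by the peaks of all libraries that called it are written on the plus strand of mm9. The site near Saa3 and the site at the Reg3b start were added after the values were seen, the first because all 8 libraries called it and the second because of its place at a gene start. At Duoxa2 the site called most often lay in a UTR, and the next one is shown. Capitals mark the HNF4 motif CAAAGTCCA, searched on both strands with at most 1 mismatch. The first 4 sequences hold a match.
Saa1 site, chr7:53994076-53994160: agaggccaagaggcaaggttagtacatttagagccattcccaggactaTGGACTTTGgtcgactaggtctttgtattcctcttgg
Saa3-side site, chr7:53979396-53979478: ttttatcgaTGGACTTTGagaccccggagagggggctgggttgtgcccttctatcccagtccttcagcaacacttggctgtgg
Duox2 downstream site, chr2:122092716-122092781: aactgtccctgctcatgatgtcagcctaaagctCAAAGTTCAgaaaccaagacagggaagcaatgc
Reg3g downstream site, chr6:78398536-78398691: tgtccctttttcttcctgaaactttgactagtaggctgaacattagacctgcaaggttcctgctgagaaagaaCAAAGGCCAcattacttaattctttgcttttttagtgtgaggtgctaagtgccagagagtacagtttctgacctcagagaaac
The Saa1 sequence held the motif with 0 mismatches on the minus strand, at 53994124 to 53994132, and the Saa3-side sequence did so on the minus strand at 53979405 to 53979413. The Duox2 downstream sequence held CAAAGTTCA at 122092749 to 122092757 and the Reg3g downstream sequence held CAAAGGCCA at 78398609 to 78398617, both on the plus strand and with 1 mismatch. The remaining 5 sequences held no match in the bases shown.
Reg3b upstream site, chr6:78309674-78309824: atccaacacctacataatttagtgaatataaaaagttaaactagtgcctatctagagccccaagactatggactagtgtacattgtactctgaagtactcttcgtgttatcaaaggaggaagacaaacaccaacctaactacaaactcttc
Reg3b and Reg3a shared upstream site, chr6:78312208-78312441: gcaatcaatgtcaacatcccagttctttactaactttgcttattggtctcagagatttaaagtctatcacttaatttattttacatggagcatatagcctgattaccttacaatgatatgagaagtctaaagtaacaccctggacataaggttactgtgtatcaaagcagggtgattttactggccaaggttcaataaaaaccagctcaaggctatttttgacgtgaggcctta
Reg3b start site, chr6:78320581-78320748: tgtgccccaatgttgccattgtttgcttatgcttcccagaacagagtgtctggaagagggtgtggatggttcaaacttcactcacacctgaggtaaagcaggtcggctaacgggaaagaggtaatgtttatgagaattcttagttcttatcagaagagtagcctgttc
Duox2 and Duoxa2 start site, chr2:122124350-122124500: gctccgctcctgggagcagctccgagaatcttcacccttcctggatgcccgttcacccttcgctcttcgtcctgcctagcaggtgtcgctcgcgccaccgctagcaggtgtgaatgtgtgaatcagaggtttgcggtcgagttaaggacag
Nos2 downstream site in Lgals9, chr11:78786325-78786422: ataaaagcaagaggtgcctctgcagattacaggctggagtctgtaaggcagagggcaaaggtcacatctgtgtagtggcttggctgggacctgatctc

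Over all 26 sites, the 200 bp at the midpoint of the merged site held the motif with 0 mismatches at 1 site (3.85%), beside 4.9% of the 45326 sites with reference sequence. With at most 1 mismatch it was held by 10 sites (38.5%), beside 29% of all sites. The exact match at Saa1 lay outside this window, since the merged site there is wide. A window centred on the median midpoint of the peaks, chosen after that match had been seen, gave 2 and 11 member sites, beside 5.64% and 31.9% of all sites. The STAT motif TTCCNGGAA was in 0 of 26 member sites and in 0.98% of all sites. In the 300 bp of promoter, 250 bp before to 50 bp after the gene start, 1 of 10 members, Fut2, held the HNF4 motif with at most 1 mismatch, beside 8.09% of 22367 protein-coding genes. The STAT motif was in 0 of 10 member promoters and in 1.15% of all. Motif matches describe these letters and are not shown to be bound. The share with at most 1 mismatch was 4 of 12 among member sites called in 6 or more libraries and 6 of 14 among the others.

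Of the 10 members, 8 had at least 1 HNF4A site and 2, Retnlb and Fut2, had none, where 34.5% of 22367 protein-coding genes had no site in a window of the same kind. Duox2 had 8 sites, a number that 9.74% of protein-coding genes reached or passed, and Nos2 had 7, which 13.1% of genes reached or passed. Reg3b had 6 sites, Reg3a 5, Saa1 and Duoxa2 4 each, Saa2 3 and Reg3g 1. The median was 4 sites per member and 2 sites per protein-coding gene. Longer genes have longer windows, and Nos2 at 39468 bp is the longest member.

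**Figure D1:**
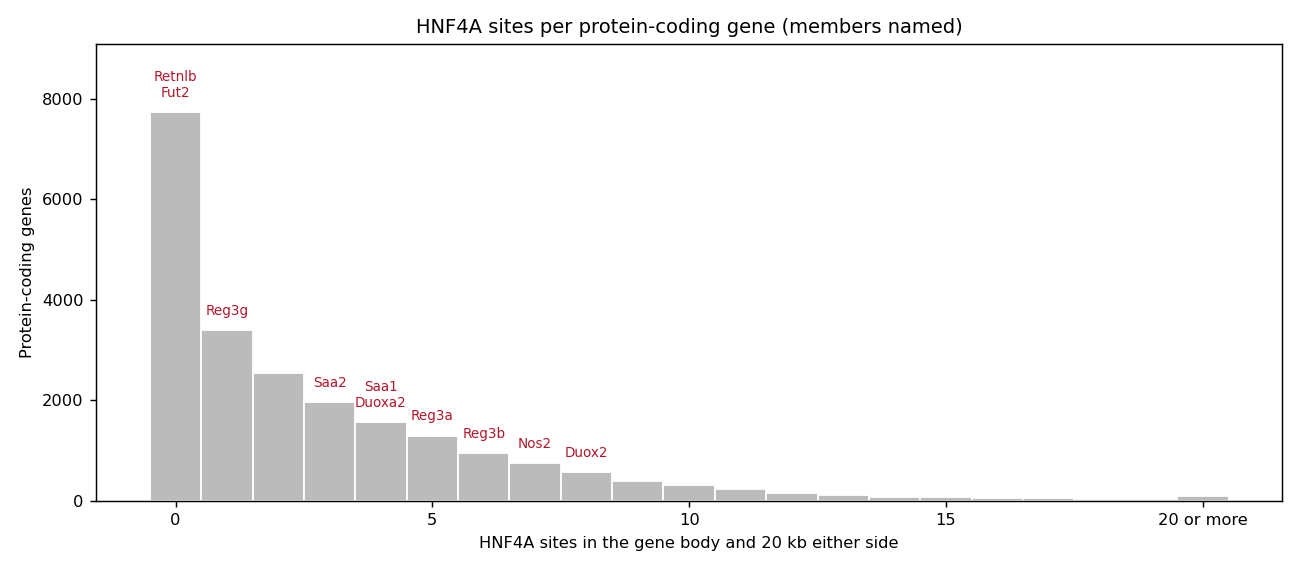
Number of HNF4A sites in the gene body and 20 kb either side (x axis) for all protein-coding genes (y axis, number of genes), with the members named above their bar. Retnlb and Fut2 stand in the bar of genes with 0 sites, and Duox2, with 8, is the member farthest to the right.

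Retnlb was far from any site. The nearest on its left lay 246125 bp away, at chr16:48570377-48570844, and was called by 4 GF+HFM and 2 CV+HFM libraries. The nearest on its right lay 1036165 bp away. Fut2 had a site just outside its window, 23253 bp from the gene at chr7:52880076-52880712, which 4 GF+HFM and 2 CV+HFM libraries called. With 50 kb either side only Retnlb was without a site, and with 10 kb either side 3 members were. The shares of all protein-coding genes without a site in these windows were not computed.

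GF+HFM replicates 1 to 4 called 20, 16, 19 and 17 of the 26 member sites, and CV+HFM replicates 1 to 4 called 20, 7, 13 and 4. CV+HFM 1 called as many member sites as any GF+HFM library, while CV+HFM 2, 3 and 4 were below all of GF+HFM. The means were 18 ± 1.83 (SD, n = 4) and 11 ± 7.07 (SD, n = 4). As shares, the libraries called on average 69.2% of member sites in GF+HFM and 42.3% in CV+HFM, and 71.6% and 33.1% of all sites. The lists held 31061 to 36846 peaks for GF+HFM and 4533 to 29345 for CV+HFM, and read depth is unknown. The part of depth or enrichment in the difference was not tested.

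**Figure D2:**
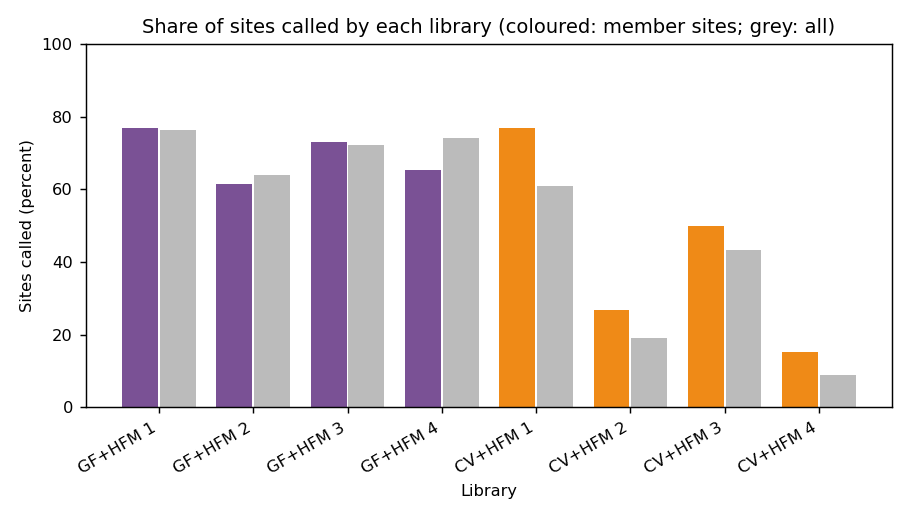
Percent of sites called (y axis) by each of the 8 libraries (x axis), for the 26 member sites (coloured bars, purple for GF+HFM and orange for CV+HFM) and for all 45552 sites (grey bars). Both bars are lowest in CV+HFM 4, at 15.4% and 8.97%, while in CV+HFM 1 the member bar is level with the highest of GF+HFM, at 76.9%, and the grey bar, at 60.8%, is below all of GF+HFM.

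Of the 26 member sites, 19 had calls from more libraries of GF+HFM than of CV+HFM, where 86.5% of all sites did. Another 5 were called in equal numbers (10.7% of all sites) and 2 in more CV+HFM libraries (2.86%), both of them in CV+HFM 1 alone. Calls came from GF+HFM alone at 6 member sites (35.6% of all sites) and from CV+HFM alone at 2 (2.67%). At least 2 libraries called 21 member sites (78.4% of all sites). All 4 GF+HFM libraries called 13 member sites (50.6% of all sites). Of these 13, CV+HFM 1 called 13, CV+HFM 3 called 12, CV+HFM 2 called 7 and CV+HFM 4 called 4. The matching share for each CV+HFM library over the genome was not computed, so these counts cannot show whether member sites differ from others. The pattern of all 4 GF+HFM libraries with CV+HFM 1 and 3 alone held for 5 member sites, beside 18.7% of all sites. In two-sided Fisher's exact tests (4 against 4 libraries), 0 of 26 sites had an unadjusted p under 0.05, which 2.79% of all sites had in the direction of GF+HFM and 0 in the other. After Benjamini-Hochberg adjustment of the Fisher p over the 45552 sites, 0 sites passed, and the lowest adjusted p was 0.824. With a smallest possible p of 0.0286, reached by 2.79% of sites, none could pass, so the adjusted result decides nothing. The lowest p at a member site was 0.143, at the Reg3 site called by 4 GF+HFM and 1 CV+HFM libraries, and the smallest this design allows is 0.0286. The only CV+HFM call at this Reg3 site came from CV+HFM 1. Leaving out that library therefore fixed its unadjusted Fisher p under 0.05, which decides nothing about the site. It was the 1 member site under 0.05 without CV+HFM 1, and the share of all sites under 0.05 there was not computed. In that setting 20 of 24 member sites and 91.2% of all sites were called in a larger share of GF+HFM libraries. Without CV+HFM 2 and 4, the lists with fewest peaks, 8 member sites were called in a larger share of GF+HFM libraries and 4 in a larger share of CV+HFM, beside 51.3% and 6.98% of all sites, and the mean number of member sites called was 18 for GF+HFM and 16.5 for CV+HFM. With only the 4533 widest peaks of each list the direction turned: there were 6 member sites, of which 0 were called in more GF+HFM and 5 in more CV+HFM libraries, beside 40.3% and 38.6% of all sites. Among the 5 libraries whose identifiers carry the letter A, the means were 18 for GF+HFM 1 and 2 and 13.3 for CV+HFM 1 to 3. Of their 24 member sites, 12 were called in a larger share of GF+HFM and 5 of CV+HFM libraries, beside 72.8% and 6.64% of all sites.

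**Figure D3:**
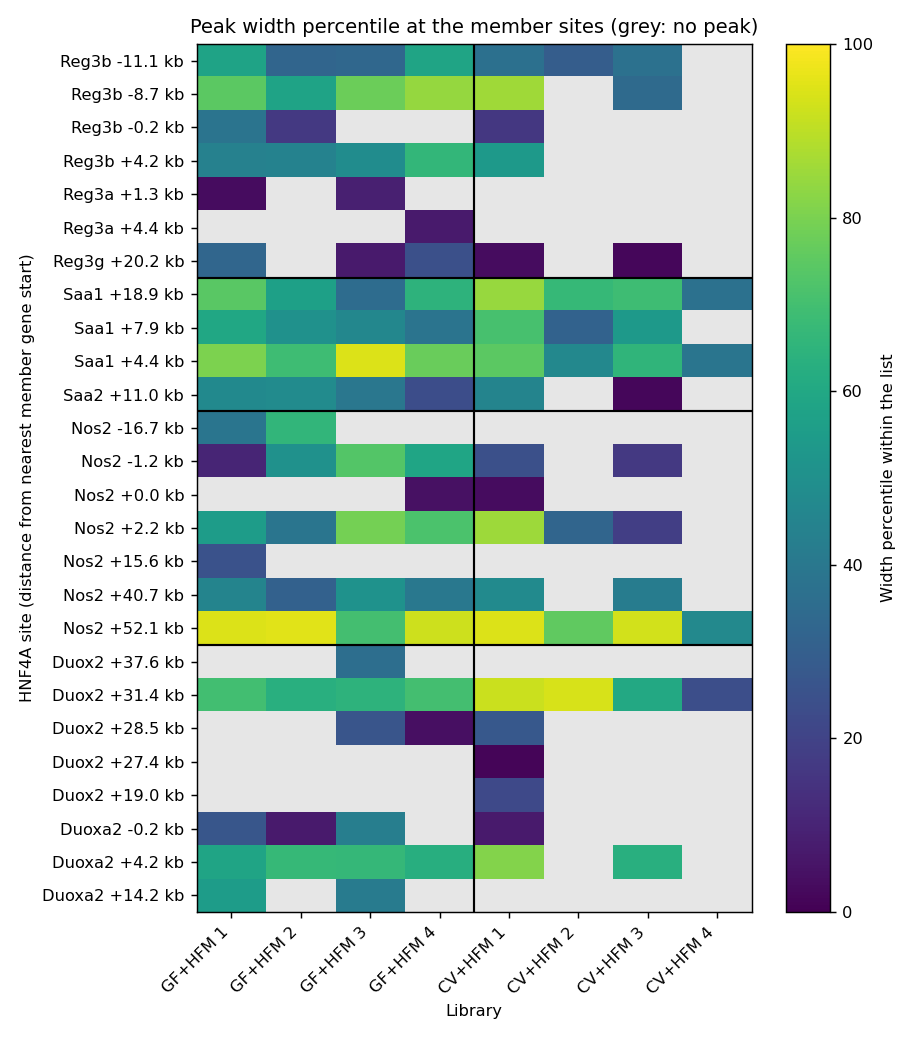
Width percentile of the peak within its own list (colour, 0 narrowest to 100 widest, grey where the library had no peak) for the 26 member sites (rows, named by the distance from the nearest member gene start) in the 8 libraries (columns). The rows filled in all 8 columns are 2 at Saa1, 1 at Nos2 and 1 at Duox2.

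All 8 libraries called 4 member sites, beside 7.56% of all sites. They were 2 sites at Saa1, the site in Lgals9 downstream of Nos2, and the Duox2 downstream site. For these sites, width was ranked within each library among the 3445 sites called in all 8 libraries, converted to normal scores and compared with limma. Of the 3445 sites, 4 passed at an adjusted p under 0.05, each ranking lower in CV+HFM (0.116% lower, 0% higher), and none was a member site. An unadjusted p under 0.05 was reached by 2 of the 4 member sites, the Saa3-side and Duox2 downstream sites, both ranking higher in CV+HFM, beside 5.57% of the 3445 in that direction and 5.98% in the other. Without GF+HFM 3, 0 member sites reached it. In the paragraphs on single loci, a width percentile places a peak within its own list, and since the lists differ in length the conditions are compared only by the rank among these 3445 sites.

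The Saa locus on chromosome 7 was the one with most calls per site. Its 4 sites were called 16 of 16 possible times in GF+HFM (100%, all sites 71.6%) and 13 of 16 in CV+HFM (81.25%, all sites 33.1%). The site 4353 bp downstream of the Saa1 start, chr7:53993502-53994492, had width percentiles of 80.4, 68.9, 94.9 and 77.2 in GF+HFM 1 to 4 and of 75.0, 46.7, 65.6 and 38.7 in CV+HFM 1 to 4. Among the 3445 sites its rank percentiles were 28.8, 15.5, 75.9 and 26.4 in GF+HFM and 24.1, 21.2, 19.2 and 28.9 in CV+HFM, which overlapped, and the mean normal score of width rank was -0.38 for GF+HFM and -0.73 for CV+HFM (difference -0.36 ± 0.405 SE, limma adjusted p = 0.744). The site at chr7:53979173-53979739 lay 18894 bp downstream of the Saa1 start and nearest to the start of Saa3, a further serum amyloid A gene. Its percentiles were 74.3, 56.8, 35.3 and 64.8 in GF+HFM and 84.5, 66.9, 68.9 and 37.3 in CV+HFM. This site's peaks were 449, 321, 336 and 567 bp wide in GF+HFM and 513, 219, 340 and 83 bp in CV+HFM. Among the 3445 sites its rank percentiles were 18.8, 5.53, 0.784 and 11.6 in GF+HFM and 43.2, 41.4, 23.2 and 27.6 in CV+HFM, so that every CV+HFM library ranked it above every GF+HFM library, as held for 1 of the 4 member sites and 3.89% of the 3445. The reverse held for 0 member sites and 2.03% of the 3445. Its mean normal score of width rank was -1.52 for GF+HFM and -0.43 for CV+HFM (difference 1.09 ± 0.398 SE, limma adjusted p = 0.328). The site at chr7:53990224-53990662, nearest to the start of Saa4, was called by 4 GF+HFM and 3 CV+HFM libraries, and the site at chr7:54017995-54018361, at intron 23 and exon 23 of Hps5 and 10975 bp downstream of the Saa2 start, in 4 and 2. No site lay within 1 kb of the start of Saa1 or Saa2.

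The Reg3 locus on chromosome 6 had 7 sites. They were called 20 of 28 possible times in GF+HFM (71.4%, all sites 71.6%) and 9 of 28 in CV+HFM (32.1%, all sites 33.1%). CV+HFM 4 called none of them, and it called 8.97% of all sites. Upstream of Reg3b, the site at chr6:78309533-78310052, 11087 bp before the start, was called by 4 GF+HFM and 3 CV+HFM libraries, at width percentiles of 58.1, 32.7, 33.5 and 58.5 and of 37.0, 29.7 and 37.3. The site at chr6:78311811-78312594, 8677 bp before the Reg3b start, was called in 4 and 2, at percentiles of 74.9, 58.1, 77.4 and 84.2 in GF+HFM and of 85.7 and 34.7 in CV+HFM 1 and 3. Of the 7 sites, the one 8677 bp before the Reg3b start had the highest mean width percentile over the libraries that called it, 69.2. At the Reg3b start itself, chr6:78320548-78320831 had peaks in GF+HFM 1 and 2 and in CV+HFM 1, at percentiles of 38.4, 16.5 and 16.3. Between Reg3b and Reg3a, nearest to the start of Reg3d, chr6:78324756-78325342 had peaks in every GF+HFM library and in CV+HFM 1, at percentiles of 43.9, 44.5, 48.5 and 66.1 and of 54.3. In Reg3a, a site over intron 2, exon 3 and intron 3 (chr6:78331858-78332127) was called in GF+HFM 1 and 3 alone, at percentiles of 3.4 and 9.0. Reg3g had a single site, chr6:78398466-78398798, 20236 bp downstream of its start, called by 3 GF+HFM and 2 CV+HFM libraries and narrow in each, at percentiles of 33.0, 7.1 and 24.3 and of 3.2 and 1.7.

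Nos2 on chromosome 11 had 7 sites. They were called 20 of 28 possible times in GF+HFM (71.4%, all sites 71.6%) and 12 of 28 in CV+HFM (42.9%, all sites 33.1%). The site 1203 bp before the start, chr11:78732740-78733432, was called by 4 GF+HFM and 2 CV+HFM libraries, at percentiles of 10.5, 50.4, 73.3 and 58.7 and of 24.4 and 16.5. The site over the start and exon 1, chr11:78734178-78734410, had peaks in GF+HFM 4 and CV+HFM 1 alone, at percentiles of 4.7 and 3.2. In intron 2, chr11:78736120-78736793 was called in 4 and 3, at percentiles of 55.2, 39.0, 79.2 and 71.7 in GF+HFM and of 85.2, 32.6 and 18.7 in CV+HFM 1 to 3. Of the sites near the start, the one in the intron was thus called most often. Beyond the end of the gene, chr11:78774724-78775181 was called in 4 and 2. The widest member site, 1189 bp at chr11:78785774-78786962, lay over exon 3 and introns 2 and 3 of Lgals9, which encodes galectin-9, with percentiles of 94.6, 95.7, 70.0 and 92.6 in GF+HFM and of 94.8, 75.7, 93.3 and 47.2 in CV+HFM. Its mean normal score of width rank was 0.22 for GF+HFM and 0.29 for CV+HFM (difference 0.07 ± 0.436 SE, limma adjusted p = 0.966). A site upstream, chr11:78717437-78717793, was called in GF+HFM 1 and 2.

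Duox2 and Duoxa2 on chromosome 2 start back to back and shared 4 of their 8 sites. The 8 sites were called 16 of 32 possible times in GF+HFM (50%, all sites 71.6%) and 10 of 32 in CV+HFM (31.25%, all sites 33.1%). The site between the starts of Duox2 and Duoxa2, chr2:122124255-122124624, had peaks in GF+HFM 1, 2 and 3 and in CV+HFM 1, at percentiles of 26.9, 7.1, 42.8 and 7.1. The site at the last exon of Duoxa2, chr2:122128518-122129167, was called by 4 GF+HFM and 2 CV+HFM libraries, at percentiles of 58.6, 67.0, 66.6 and 62.9 and of 81.3 and 63.2. The Duox2 downstream site, chr2:122092383-122093099, lay 31444 bp from the Duox2 start and was called in every library, at percentiles of 69.7, 63.0, 64.8 and 70.2 in GF+HFM and of 92.1, 94.0, 60.3 and 23.9 in CV+HFM. This site's peaks were 415, 345, 495 and 613 bp wide in GF+HFM and 627, 346, 307 and 66 bp in CV+HFM. Among the 3445 sites its rank percentiles were 13.0, 9.75, 12.0 and 17.5 in GF+HFM and 66.3, 86.8, 14.1 and 16.2 in CV+HFM. CV+HFM 1 and 2 were above all of GF+HFM, and CV+HFM 3 and 4 were inside its range. Its mean normal score of width rank was -1.13 for GF+HFM and -0.13 for CV+HFM (difference 1.00 ± 0.466 SE, limma adjusted p = 0.425). The site at chr2:122138633-122139096, over exon 3 of Duoxa1, was called in GF+HFM 1 and 3, and chr2:122095511-122095812 in 2 GF+HFM and 1 CV+HFM libraries. The 5 member sites called in 1 library were 3 here, at chr2:122086373-122086712 in intron 7 of Sord, chr2:122096661-122096831 and chr2:122105055-122105284 in Duox2, with 1 at Reg3a (chr6:78335003-78335247) and 1 in exon 7 of Nos2 (chr11:78749788-78750014). Single-library sites made up 21.6% of all sites.

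**Figure D4:**
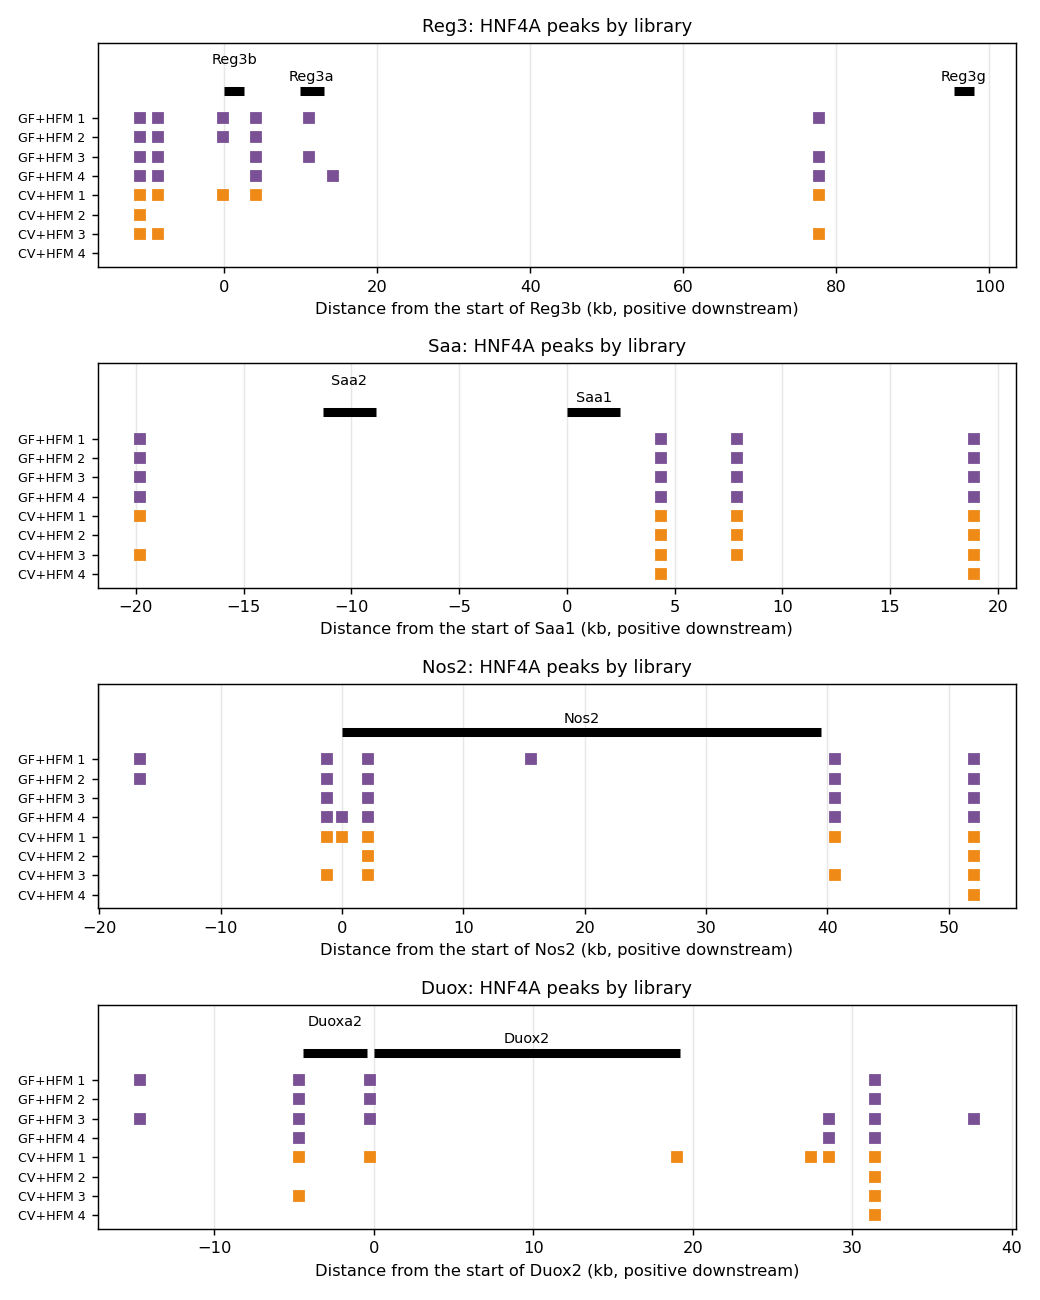
HNF4A peaks at the Reg3, Saa, Nos2 and Duox loci by library (rows, purple GF+HFM and orange CV+HFM), as the distance of the site's midpoint from the start of the named gene (x axis, kb, positive downstream). Black bars are member gene bodies to scale, squares mark a call and not a peak's width, and the sites filled in every row lie away from the gene starts.

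Of the 26 member sites, 3 lay within 1 kb of a member start, at Reg3b, Nos2 and between Duox2 and Duoxa2, and they were called in 3, 2 and 4 of the 8 libraries. Any protein-coding start was within 1 kb of 15.4% of member sites and 14.2% of all sites. Member bodies were overlapped by 6 sites. For 7 sites the nearest protein-coding start belonged to a gene that is not a member. Member sites were 171 to 1189 bp wide with a median of 404.5 bp, and the median over all sites was 437 bp. The median GC content was 48% at member sites and 48.5% at all.

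Related genes were counted in the same window. Among 14 neighbours and paralogs, 11 had a site, with 26 sites of which 24 were called in more GF+HFM libraries, 2 in equal numbers and 0 in more CV+HFM. For this count and those below, the shares over all sites were 86.5%, 10.7% and 2.86%. Reg3d had 6 sites, Fut4 had 5, and Duox1 and Duoxa1 had 4 each. Many sites of this group were themselves member sites, so its counts partly repeat those of the members. They were all 6 at Reg3d, 3 of 3 at Saa4 and 2 of 2 at Saa3. Duox1 and Duoxa1 each had 3 of 4, and Reg1 and Reg2 each 1 of 2. The sites of Reg4, Fut1, Fut4 and Nos3 were not member sites. Retnla, Retnlg and Nos1 had none. An unadjusted Fisher p under 0.05 was reached by 1 of the 26 sites, at Fut1, in the direction of GF+HFM. Over all sites the share in that direction was 2.79%. Of 16 other epithelial defence genes 14 were found, of which 9 had a site and Ang4, Zg16, Pglyrp2, Slpi and Ido1 had none. Nlrp6, an innate immune sensor, had 11 sites and Pigr, which carries IgA across the epithelium, had 7, with Itln1, Il18 and Nod2 at 6. Their 42 sites were called in more GF+HFM libraries at 27, in equal numbers at 11 and in more CV+HFM libraries at 4. Of 14 genes that signal to the members 13 were found and 11 had a site, with Il22ra1, a subunit of the IL-22 receptor, at 11, the adaptor Myd88 at 9, and Stat3 and Cebpb at 7. Tlr4 and Il1r1 had none. Their 55 sites divided into 46, 8 and 1. Of the 55, 3 had an unadjusted Fisher p under 0.05 in the direction of GF+HFM, 1 at Myd88 and 2 at Nfkb1, beside 2.79% of all sites. Among cell type markers, all 8 of enterocytes had a site, with a median of 10, as did 3 of 3 goblet, 1 of 3 Paneth, 3 of 4 leukocyte and 2 of 4 mesenchyme markers. Of all protein-coding genes 34.5% had no site, and the median was 2. The marker counts are of sites and not expression, and they do not measure the makeup of the cells.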

How the data were processed

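HNF4A ChIP-seq of jejunal IECs was analysed for 4 GF+HFM and 4 CV+HFM mice. The authors used Bowtie2 to align reads to mm9, and peaks were called per mouse by MACS2 2.1.1.20160309 against input at a false discovery rate under 0.05, without pooling. The deposited lists give positions in bp, and no score, count or signal, so depth is unknown and peak width took the place of strength, in place of the planned choice of fold enrichment where present. The width percentile is the rank of a peak's width within its list.

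The members and lists were chosen with earlier results of these data known. All 10 members are named, with each site called in at least 2 libraries described, and the 3 related genes with most sites. Sites were merged at 1 bp or more. Fisher's exact tests (scipy 1.17.1) ran over 45552 sites. For relative width rank, limma 3.58.1 (R 4.3.3) was fitted over 3445 sites, with Benjamini-Hochberg adjustment. In simulated data of 3445 sites, with 200 shifted by 3 SD in CV+HFM, it recovered 61.5% of the shifted sites. All 8 samples are separate mice. Sequences were read from NCBIM37, in which 0 sites ended beyond their chromosome. The first motif window was the midpoint of the merged site, and the second window and 2 of the sequences shown were chosen after values were seen. Other libraries of the series were not analysed here.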

Additional observations from a re-analysis of the deposited data

Results flagged for a closer look

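Among 21 sets of 4 values examined, 1 held a value set apart from the other 3 by Dixon's criterion, where chance gives about 1 in 20. At the site in Lgals9 downstream of Nos2, GF+HFM 3 had a width percentile of 69.98, below the 92.6 to 95.7 of the other GF+HFM libraries.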

How the results depend on the processing

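Of 84 recomputed values, 67 kept their call or stayed within the replicate spread or 1.5 times the count. The 26 member sites became 62 with 50 kb either side and 6 with the widest peaks. Members without a site became 1 and 4, and the shares of all protein-coding genes in these settings were not computed. Sites called in more GF+HFM libraries fell from 19 to 0 with the widest peaks and to 8 without CV+HFM 2 and 4, a setting chosen after seeing the data. The shares over all sites were 86.5%, 40.3% and 51.3%. The difference in sites called per library turned from -7 to 2 with the widest peaks, a setting that kept the list of CV+HFM 4 whole and cut the GF+HFM lists most. The cause was not tested. Exact HNF4 motif matches went from 1 to 2 with the second window, also chosen after seeing the data. Without single libraries, the count of member sites ranged from 24 to 26 and members without a site stayed at 2. Member sites called in a larger share of GF+HFM libraries ranged from 16 to 20, beside 75.9% to 91.2% of all sites. Member sites past an unadjusted Fisher test ranged from 0 to 1. The 1 came without CV+HFM 1, the only CV+HFM library that called it, so it decides nothing. The difference per library ranged from -10 to -4.67. The 4 sites of changed width rank ranged from 0 to 21, and member sites among them stayed at 0. The 4 calls over all sites were lost without GF+HFM 1, 3 or 4 or CV+HFM 2 or 3, and were 1 without CV+HFM 4, 14 without GF+HFM 2 and 21 without CV+HFM 1. With the replicate block the fit again gave 4 sites and 0 member sites. Samples of the same number correlated at 0.053, 0.075, -0.078 and 0.138. Whether they share more than a number is not known, and these values cannot decide it. Depth is unknown, and a site without a call may be occupied below the threshold of that library.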
